A study of Mus musculus with 24 samples.

Results

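Genes of oxidative phosphorylation were followed in 2 sets, the subunits encoded in the nucleus and the mRNA genes of the mitochondrial genome. The nuclear set held the 84 protein-coding genes whose symbols begin with Nduf (subunit families a, b, c, s and v), Uqcr, Cox4 to Cox8 or Atp5, with the 4 Sdh genes. The mitochondrial set held the 13 genes whose symbols begin with mt-Nd, mt-Co, mt-Cytb or mt-Atp. Together they were 97 of the 39017 genes counted, and 10 genes with matching symbols that are not protein-coding were left out. RNA-seq was done on sorted cells of the mouse cerebral cortex at E15.5, a stage of cortical neurogenesis. Sorting on PAX6 and on TBR2, the protein of Eomes, gave PAX6+ cells (labelled radial glia), TBR2+ cells (labelled intermediate progenitors) and PAX6-TBR2- cells (labelled cortical neurons). KO cells carried Emx1Ires-Cre with Prdm16flox/flox, and WT cells carried Prdm16 flox/flox without Cre, so the floxed alleles were common to all 6 groups and the Cre allele was present in KO alone. Each group had 4 libraries, called biological replicates in the series text. Which embryos or litters they came from is not given in the sources used here, so the p-values measure the spread between these libraries, which may be partly technical. Emx1-Cre acts in the dorsal telencephalic lineage, so interneurons, vessels and microglia in a sort keep the floxed gene.

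Oxidative phosphorylation is carried out in the inner mitochondrial membrane. Complex I takes electrons from NADH and complex II from succinate, complex III passes them to cytochrome c, complex IV to oxygen, and complex V uses the resulting proton gradient to make ATP. Complexes I, III, IV and V are assembled from subunits of both genomes, whereas complex II is encoded by nuclear genes only. Neural progenitors are commonly described as relying more on glycolysis and neurons more on oxidative phosphorylation. In brown fat, PRDM16 is known to act with PGC-1alpha, the product of Ppargc1a, on genes of mitochondrial metabolism.

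The mitochondrial genes could be followed in part only. mt-Co2, mt-Atp8, mt-Atp6, mt-Co3 and mt-Nd4l held 2, 0, 5, 1 and 3 counts over the 24 libraries, with at most 1 count in any library. Of the 13 genes, 7 have a copy of at least 98% identity over 100 bases or more in an annotated cluster on chromosome 1, between positions 24611535 and 24616197 of GRCm38, on the nuclear genome. The copies cover 99.6% of mt-Co2 and of mt-Atp6, 99.9% of mt-Co3, 99% of mt-Nd4l and 99.1% of mt-Nd3, against 63.6% of mt-Nd4 and 31.3% of mt-Co1. Among annotated transcripts no copy was found for mt-Nd1, mt-Nd2, mt-Nd5, mt-Nd6 and mt-Cytb, nor for mt-Atp8. Sequence outside annotated transcripts was not searched, so copies there, or longer copies, would be missed. mt-Nd3 shows how close the copies are. Its first 63 bases stand below with those of its copy, Gm28438. The base that differs is in capitals, and over 345 aligned bases it is the only difference, T3C, counted from the first base of mt-Nd3.
mt-Nd3: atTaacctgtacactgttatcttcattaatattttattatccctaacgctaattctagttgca
Gm28438: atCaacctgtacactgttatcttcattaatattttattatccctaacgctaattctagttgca
mt-Nd3 held 1199 counts in all, in 21 of the 24 libraries. A low count of a gene with such a copy is no measure of its RNA, since reads that match 2 places are often not counted. How the authors treated them is not given in the sources used here, and the part of the copies in these counts was not tested. mt-Nd6 lies on the opposite strand to the other mitochondrial mRNA genes, and without the strand setting its counts can include reads of the complementary strand.

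The nuclear genes are spread over the chromosomes, and part of them share promoter letters. Windows from 250 bases before to 50 after the start site (RefSeq, GRCm38.p6) were found by symbol for 66 of the 84 genes, and a gene with several windows was counted once if any of them matched. The NRF1 letters, GCGCA and GCGC with any base between them, were present, on either strand, in 17 of the 66 genes with a window (25.8%), against 5.19% of all 27025 genes with a window. The ETS letters CCGGAAG, which GABPA can bind, were in 24.2% against 9.93%, the YY1 letters AAGATGGCG in 10.6% against 1.64%, and the estrogen-related receptor letters AAGGTCA in 12.1% against 5.38%. At least 1 of the NRF1, ETS and YY1 letters stood in a window of 34 of the 66 genes (51.5%), against 15.1% of all genes. A match describes the letters and is no measured binding site. The windows of 4 genes with matches, whose values recur below, are shown as read on the strand of the gene. Matches on either strand are in capitals, and none of these motifs overlap there. The windows of Atp5b, Cox7a2l and Uqcr10, whose values also recur below, held no match of these motifs. Sdhd encodes a membrane anchor of complex II, Sdha its flavoprotein, Cox6a1 a subunit of complex IV and Ndufs6 an accessory subunit of complex I.
Sdhd, chr9:50603800-50604099, minus strand: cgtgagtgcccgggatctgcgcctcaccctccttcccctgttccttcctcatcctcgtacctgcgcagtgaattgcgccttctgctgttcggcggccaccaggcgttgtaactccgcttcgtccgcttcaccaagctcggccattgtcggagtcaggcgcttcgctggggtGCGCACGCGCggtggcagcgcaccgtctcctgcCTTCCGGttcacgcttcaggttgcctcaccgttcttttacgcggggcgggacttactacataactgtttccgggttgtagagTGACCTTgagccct
Sdha, chr13:74350191-74350490, minus strand: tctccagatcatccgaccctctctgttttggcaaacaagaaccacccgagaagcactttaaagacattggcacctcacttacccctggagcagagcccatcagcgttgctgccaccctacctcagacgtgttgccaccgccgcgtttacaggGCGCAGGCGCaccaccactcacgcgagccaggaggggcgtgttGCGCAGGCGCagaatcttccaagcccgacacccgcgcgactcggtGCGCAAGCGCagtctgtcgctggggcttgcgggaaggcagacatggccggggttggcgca
Cox6a1, chr5:115348909-115349208, minus strand: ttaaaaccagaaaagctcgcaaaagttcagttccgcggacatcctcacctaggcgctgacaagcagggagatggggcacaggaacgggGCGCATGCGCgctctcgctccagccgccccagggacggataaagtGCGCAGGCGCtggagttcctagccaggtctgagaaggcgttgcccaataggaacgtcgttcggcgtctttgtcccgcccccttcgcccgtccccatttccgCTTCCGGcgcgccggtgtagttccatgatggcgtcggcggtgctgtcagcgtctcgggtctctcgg
Ndufs6, chr13:73328433-73328732, minus strand: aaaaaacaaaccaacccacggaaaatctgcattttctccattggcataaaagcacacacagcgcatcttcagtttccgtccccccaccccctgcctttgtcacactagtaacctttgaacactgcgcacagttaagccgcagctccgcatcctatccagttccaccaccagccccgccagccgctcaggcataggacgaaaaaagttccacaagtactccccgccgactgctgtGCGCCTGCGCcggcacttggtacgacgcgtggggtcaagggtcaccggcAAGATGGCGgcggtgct
The Sdha window held 3 NRF1 matches and the Cox6a1 window 2 NRF1 matches and an ETS match. The Sdhd window held NRF1, ETS and estrogen-related receptor letters, and the Ndufs6 window NRF1 and YY1 letters.

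The PAX6+ libraries held between 7.62 and 12.6 M counts each and the TBR2+ libraries between 6.4 and 8.22 M. Among PAX6-TBR2- libraries WT replicate 4 stood apart with 30 M, the others holding 4.95 to 8.64 M. Levels below are CPM, counts scaled to a common library total, on library sizes scaled by TMM, a trimmed mean of ratios, over all 24 libraries. Prdm16, the floxed gene, averaged 187 ± 27.2 CPM in KO PAX6+ cells and 253 ± 34.1 CPM in WT PAX6+ cells (SD, n = 4 each), with an adjusted p of 0.058 by edgeR. It averaged 52.3 ± 7.96 CPM in KO TBR2+ and 55.6 ± 16 CPM in WT TBR2+ cells (adjusted p = 0.90, edgeR), and 19 ± 7.47 CPM in KO PAX6-TBR2- and 25.3 ± 8.35 CPM in WT PAX6-TBR2- cells (adjusted p = 0.814, edgeR). A gene count covers the whole gene and does not resolve the floxed part. Eomes averaged 877 CPM in KO TBR2+ and 931 CPM in WT TBR2+ cells, against 29.4 to 77.7 CPM as group means elsewhere, and Pax6 was highest in both PAX6+ groups. The PAX6-TBR2- libraries had the highest sums of neuron markers, at 5973 to 7388 CPM, but the TBR2+ libraries also reached 4017 to 5389 CPM, against 342 to 373 CPM in PAX6+. Interneuron markers summed to 393 to 1256 CPM in PAX6-TBR2- libraries and to at most 120 CPM elsewhere. The library names carry 1 prefix for each population, so population and library set cannot be told apart, and this limits every comparison between populations.

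Of the 84 nuclear genes, 77 had enough counts for a test over all libraries. The 7 others, Cox4i2, Cox7b2, Cox7a1, Cox6a2, Cox8b, Ndufa4l2 and Cox8c, averaged at most 0.558 CPM. Tested members averaged between 1.04 CPM (Atp5l, a subunit of the membrane part of complex V) and 457 CPM (Atp5b), with a median of 20.5 CPM. Of the 84 nuclear genes, 28 also have a match of at least 98% identity in another annotated transcript, and in Atp5f1, Atp5h, Atp5l, Ndufs3 and Uqcrb such matches cover more than 50% of the transcript. Reads shared with such a match can be left out or split, so the levels of these genes are uncertain. Atp5b, the catalytic beta subunit of complex V, held 19.4% of the counts of the nuclear set, and the leading 3 genes held 33.9%. Per kb of exon, the highest mean levels were those of Atp5b (108 CPM per kb), Atp5a1 (80.1), which encodes the alpha subunit of complex V, and Cox6a1 (79.1). The median over tested members was 11.9 CPM per kb. Mitochondrial genes without an annotated copy stood far above them, at 2615 CPM per kb for mt-Cytb (complex III), 2087 for mt-Nd1 (complex I) and 727 for mt-Nd2 (complex I).

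The nuclear set took a smaller mean share of the counts in KO than in WT libraries, while the mitochondrial set showed no such order. In PAX6+ cells the nuclear share was 0.307 ± 0.019% in KO and 0.344 ± 0.0219% in WT (SD, n = 4 each), and the ranges, 0.28 to 0.321% and 0.321 to 0.362%, met at their ends. In TBR2+ cells it was 0.195 ± 0.0242% in KO and 0.242 ± 0.0215% in WT, and the ranges, 0.162 to 0.217% and 0.223 to 0.27%, did not overlap. In PAX6-TBR2- cells it was 0.202 ± 0.00875% in KO and 0.224 ± 0.0186% in WT, with overlapping ranges of 0.19 to 0.209% and 0.196 to 0.236%. These shares depend on the mitochondrial rRNA genes mt-Rnr1 and mt-Rnr2, which took 10.2 to 37.8% of a library. Of the counts outside the mitochondrial genome, the nuclear set took 0.371 ± 0.00707% in KO and 0.415 ± 0.0203% in WT PAX6+ cells, 0.299 ± 0.0271% in KO and 0.347 ± 0.0273% in WT TBR2+ cells, and 0.261 ± 0.00801% in KO and 0.295 ± 0.0227% in WT PAX6-TBR2- cells. On this base the KO and WT ranges were apart in PAX6+ cells and overlapped in PAX6-TBR2- cells. In TBR2+ cells they nearly met, with KO replicate 4 at 0.3289% and WT replicate 2 at 0.3295%. The genes of the cytosolic ribosome, another large group of short housekeeping transcripts, moved alike: they took 0.373 ± 0.025% of all counts in KO and 0.421 ± 0.0138% in WT PAX6+ cells, 0.27 ± 0.0363% in KO and 0.338 ± 0.0278% in WT TBR2+ cells, and 0.195 ± 0.00778% in KO and 0.229 ± 0.0179% in WT PAX6-TBR2- cells. Over the 24 libraries, the nuclear set's share of non-mitochondrial counts followed that of the cytosolic ribosomal genes (Pearson r = 0.88, Spearman rho = 0.90) more than that of the mitochondrial mRNA genes (r = -0.34, rho = -0.31), a description over libraries that share populations and a denominator. Markers of cell types were called between KO and WT libraries in PAX6+ cells alone. In PAX6+ cells Eomes and Insm1 of 6 intermediate progenitor markers were called lower in KO (log2 fold changes -0.74 and -0.52). These 6 markers summed to 319 to 423 CPM in KO and 356 to 510 CPM in WT. Also called lower were 1 of 5 interneuron and 1 of 2 meningeal markers tested. Of 8 radial glia markers 1 was called higher and 6 lay above 0. All 6 endothelial markers tested lay below 0, none called. So did all 3 Cajal-Retzius markers tested and 6 of 8 neuron markers, none called. The Cajal-Retzius list summed to 19.2 to 97.1 CPM in KO PAX6+ and 32.6 to 292 CPM in WT PAX6+ libraries. Of all genes tested in PAX6+ cells, 1.19% were called lower and 2.45% higher. In TBR2+ cells all 6 Cajal-Retzius markers lay above 0, none called, with sums of 350 to 520 CPM in KO and 104 to 505 CPM in WT. In PAX6-TBR2- cells all 9 interneuron markers lay above 0, none called, with sums of 527 to 1256 CPM in KO and 393 to 1082 CPM in WT, and all 6 intermediate progenitor markers lay below 0. Of 8 neuron markers, 5 lay above 0 in TBR2+ cells and 5 below 0 in PAX6-TBR2- cells, none called. The part of the ribosomal genes and of these cell types in the genotype difference was not tested.

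**Figure D1:**
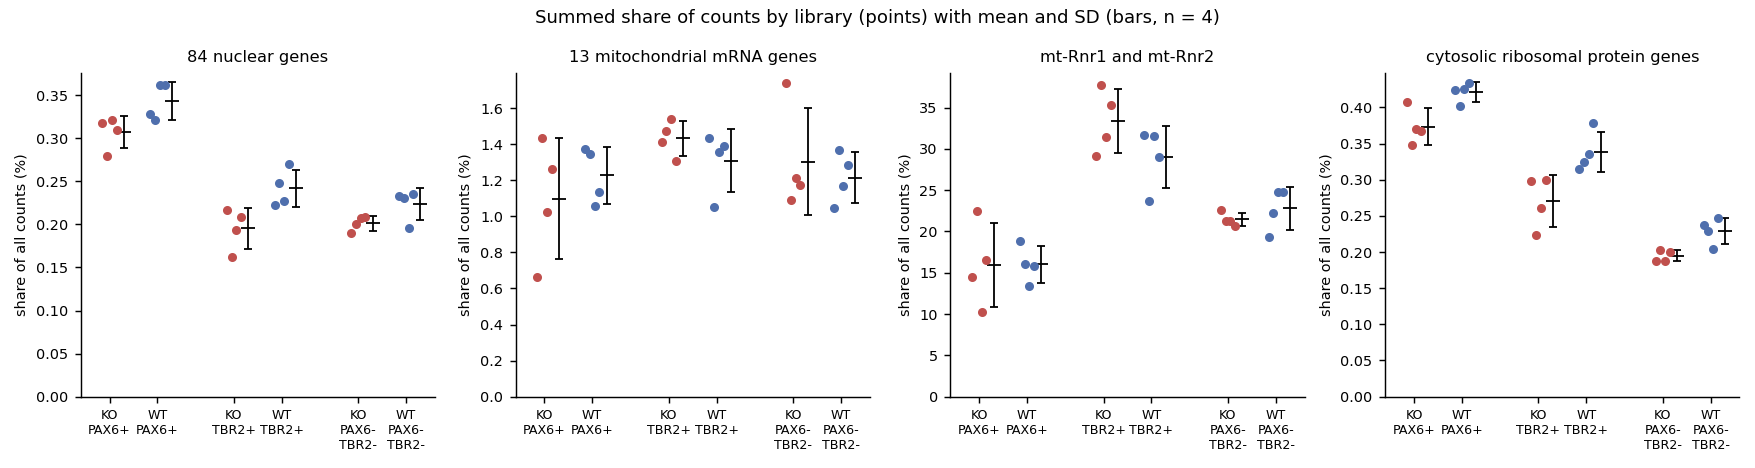
Share of all counts (%) held by the 84 nuclear genes, the 13 mitochondrial mRNA genes, the mitochondrial rRNA genes and the cytosolic ribosomal protein genes, by library (points) with group mean and SD (bars, n = 4), KO in red and WT in blue. The nuclear and ribosomal protein shares are lower on average in KO than in WT in each population, while the mitochondrial mRNA shares of KO and WT overlap in each.

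The mitochondrial mRNA genes together took 1.1 ± 0.335% of counts in KO and 1.23 ± 0.157% in WT PAX6+ cells, 1.43 ± 0.0975% in KO and 1.31 ± 0.174% in WT TBR2+ cells, and 1.3 ± 0.296% in KO and 1.22 ± 0.139% in WT PAX6-TBR2- cells, with overlapping ranges in each population. For every 100 mitochondrial mRNA counts there were 30.8 ± 12.4 nuclear counts in KO and 28.5 ± 5.43 in WT PAX6+ cells. The same number was 13.7 ± 2.33 in KO and 18.8 ± 3.56 in WT TBR2+ cells, and 16.1 ± 3.48 in KO and 18.6 ± 2.54 in WT PAX6-TBR2- cells. In these bulk samples, fewer cells of a type and less RNA per cell cannot be told apart.

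Gene by gene, most nuclear members had lower estimates in KO than in WT cells, but hardly any passed the test of edgeR's quasi-likelihood fit at an adjusted p under 0.05 over all genes tested. In PAX6+ cells none of the 77 members tested was called, against 3.64% of all 14212 genes tested (2.45% higher and 1.19% lower), and 3 members (3.9%) had an unadjusted p under 0.05, against 12.2% of all genes. The estimates of 56 members lay below 0 and of 21 above, with a median log2 fold change, KO over WT, of -0.11, where the median of all genes was 0.00. In TBR2+ cells 1 of 75 members was called, in the downward direction, against 1.76% of all 12687 genes (1.1% higher and 0.662% lower), and 13 members (17.3%) had an unadjusted p under 0.05, against 12.3% of all genes. There 67 members lay below 0 and 8 above, with a median of -0.19. In PAX6-TBR2- cells none of 74 members was called, against 0.00774% of all 12928 genes (a gene that is no member), 24 members (32.4%) had an unadjusted p under 0.05, against 6.61% of all genes, and 65 lay below 0 and 9 above, with a median of -0.26. DESeq2's Wald test called no member in PAX6+ and PAX6-TBR2- cells and 2 in TBR2+ cells. KO and WT libraries did not overlap, with KO lower, for 4 of 77 members in PAX6+ (5.19%, against 3.55% of all genes), 9 of 75 in TBR2+ (12%, against 3.06%) and 11 of 74 in PAX6-TBR2- cells (14.9%, against 2.38%). KO was higher without overlap for 1 member in PAX6+ cells, Atp5l, and for 0 in TBR2+ and 0 in PAX6-TBR2- cells, against 4.89%, 3.72% and 1.78% of all genes.

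The direction was shared between populations. They have no library in common, but whether their cells came from the same embryos is not given in the sources used here. A difference between embryos could then recur in each population. Of 74 members tested in all 3 populations, 49 lay below 0 in each (66.2%), against 22.3% of the 11766 genes tested in all 3, and 3 lay above 0 in each, Ndufb2, Cox7c and Atp5s, against 21.4% of all genes. Of 85 cytosolic ribosomal genes, 56 lay below 0 in each (65.9%). Their medians over all tested were -0.12, -0.18 and -0.28 in PAX6+, TBR2+ and PAX6-TBR2- cells. Genes of a set share regulation and are not replicates, so counts of signs describe the set only. Members are shorter than most genes, with a median exon length of 1675 bases against 4289 over all genes tested in PAX6+ cells. In an alternative fit, each library's trend of log2 levels, relative to the mean of each gene, on transcript length and GC content was removed. The medians of the nuclear members became -0.10, -0.13 and -0.17 in PAX6+, TBR2+ and PAX6-TBR2- cells, with 57 of 77, 64 of 75 and 61 of 74 members below 0. The medians of all genes were then -0.01, -0.04 and 0.00. No member passed edgeR's test of a difference in the KO effect between populations, where 0.523% of all 15091 genes did for TBR2+ against PAX6+, 0.683% for PAX6-TBR2- against PAX6+ and 0.0464% for PAX6-TBR2- against TBR2+.

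**Figure D2:**
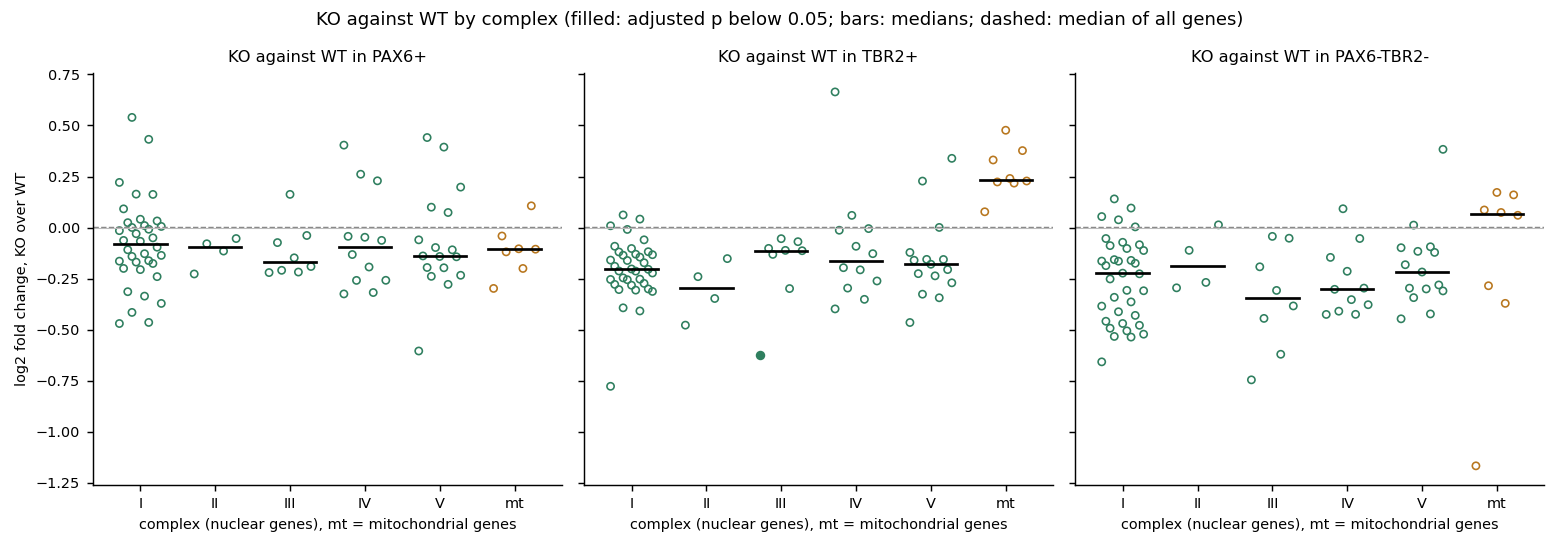
Log2 fold changes, KO over WT, of the tested members in each population, by complex for nuclear genes and in the last column for mitochondrial genes. Filled points passed an adjusted p of 0.05, black bars are medians and the dashed line is the median of all genes. Medians of the nuclear genes lie below 0 for each complex and population, Uqcrq in TBR2+ cells is the filled point, and the 8 mitochondrial genes lie above 0 in TBR2+ cells.

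Complex I was the largest group, with 36 members tested in each population, of which 24, 33 and 31 lay below 0 in PAX6+, TBR2+ and PAX6-TBR2- cells. Genes were assigned to complexes by symbol, so Ndufa4 was counted in complex I by its name alone. Ndufs6, whose promoter is shown above, had 9.93, 15.6, 13.3 and 11.9 CPM in KO PAX6+ libraries, against 21, 17.7, 17.7 and 14.5 CPM in WT PAX6+ libraries. In PAX6-TBR2- cells it had 8.54, 9.17, 10.6 and 7.27 CPM in KO libraries, against 12, 12.5, 13.1 and 13.4 CPM in WT libraries. KO libraries were mostly low in PAX6+ cells, with an overlap, and all below WT in PAX6-TBR2- cells, but neither estimate passed (log2 fold change -0.47, SE 0.17, adjusted p = 0.208 and -0.53, SE 0.16, adjusted p = 0.561, edgeR). Ndufa5, an accessory subunit of the peripheral arm, had 6.52, 8.03, 9.49 and 7.27 CPM in KO PAX6-TBR2- libraries, against 12.7, 14.1, 11.8 and 11.2 CPM in WT PAX6-TBR2- libraries. The groups did not overlap, and the log2 fold change was -0.66 (SE 0.17, adjusted p = 0.467, edgeR). In PAX6+ cells its KO mean was the higher, 10.2 ± 1.61 CPM against 8.82 ± 0.511 CPM in WT, and the test of its KO effect between these populations gave the smallest p of any member (log2 difference -0.87, adjusted p = 0.0856, edgeR). It passed with DESeq2's Wald test (adjusted p = 0.0341) and with edgeR without KO PAX6+ replicate 3 (adjusted p = 0.041). The other members with small p-values were Ndufa11 (log2 fold change -0.46), Ndufb10 (-0.31) and Ndufa10 (-0.24) in PAX6+ cells and Ndufa13 (-0.41) in TBR2+ cells, none of which passed.

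Complex II, the succinate dehydrogenase of the citric acid cycle, lay below 0 in 11 of its 12 estimates. Sdhd had 15.3, 20.7, 17.4 and 19.4 CPM in KO TBR2+ libraries, against 25.7, 21.7, 28.6 and 25.1 CPM in WT TBR2+ libraries. The KO libraries lay below the WT libraries, with a log2 fold change of -0.48 (SE 0.14, adjusted p = 0.127, edgeR). Sdha had 88.2, 82, 81.5 and 90.5 CPM in KO TBR2+ libraries and 93.4, 105, 103 and 102 CPM in WT TBR2+ libraries, again without overlap and without passing (log2 fold change -0.24, adjusted p = 0.268, edgeR). Sdhb, the iron-sulfur subunit, and Sdhc, the other membrane anchor, averaged 19.6 and 51.5 CPM in KO TBR2+ cells, against 24.9 and 57 CPM in WT TBR2+ cells.

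Complex III held the member that was called. Uqcrq (GRCm38 chromosome 11, 53427922 to 53430831, minus strand), a small subunit at the membrane, had 13.3, 12.4, 12.5 and 14.6 CPM in KO TBR2+ libraries, against 18.7, 17.2, 21.7 and 23.8 CPM in WT TBR2+ libraries. The groups did not overlap, and the log2 fold change was -0.62 (SE 0.15, adjusted p = 0.0484, edgeR). The call was lost in 11 of 17 alternatives, among them limma-voom, the length and GC correction and leaving out any KO library or WT replicate 1, 3 or 4, with adjusted p-values from 0.014 to 0.147. Uqcr10, another small subunit, had 9.78, 9.99, 11.9 and 8.77 CPM in KO PAX6-TBR2- libraries, against 17.6, 12.9, 15.2 and 16.2 CPM in WT PAX6-TBR2- libraries. Again no KO library reached a WT library, with a log2 fold change of -0.62 (SE 0.16, adjusted p = 0.467, edgeR). All 8 members of complex III lay below 0 in TBR2+ and in PAX6-TBR2- cells, and 7 of 8 in PAX6+ cells.

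In complex IV, 9 of 12, 10 of 12 and 10 of 11 members lay below 0 in PAX6+, TBR2+ and PAX6-TBR2- cells. Cox6a1 had 41, 41.6, 52.3 and 35.3 CPM in KO PAX6-TBR2- libraries, against 53.9, 51, 61.5 and 58.7 CPM in WT PAX6-TBR2- libraries. KO replicate 3 exceeded WT replicate 2, and the log2 fold change was -0.41 (SE 0.13, adjusted p = 0.561, edgeR). Cox7a2l, which binds complexes III and IV together in supercomplexes, had 50.2, 56.2, 35.8 and 53.6 CPM in KO TBR2+ libraries, against 62.4, 58.7, 58.9 and 77.9 CPM in WT TBR2+ libraries, with a log2 fold change of -0.40 (SE 0.14, adjusted p = 0.235, edgeR).

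In complex V, 12 of 17, 12 of 15 and 13 of 15 members lay below 0. Atp5b had 488, 418, 454 and 484 CPM in KO PAX6+ libraries, against 507, 502, 599 and 638 CPM in WT PAX6+ libraries. No KO library reached a WT library, and the log2 fold change was -0.28 (SE 0.10, adjusted p = 0.19, edgeR). Same-numbered PAX6+ libraries deviated together, and with the replicate number as a block Atp5b passed (log2 fold change -0.27, SE 0.07, adjusted p = 0.0184, edgeR). Atp5g3, a ring subunit that turns with proton flow, had 62, 61.1, 53.8 and 70.6 CPM in KO TBR2+ libraries, against 89.2, 72.2, 83 and 96.5 CPM in WT TBR2+ libraries, a log2 fold change of -0.47 (SE 0.12, adjusted p = 0.0578, edgeR). Atp5g3 passed in 6 of 17 alternatives, with adjusted p-values from 0.00625 to 0.183. Atp5a1 had a log2 fold change of -0.28 in PAX6-TBR2- cells (adjusted p = 0.561, edgeR), and Atp5s, a coupling factor, lay above 0 in each population (0.39, 0.34 and 0.38), unlike most of the set.

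**Figure D3:**
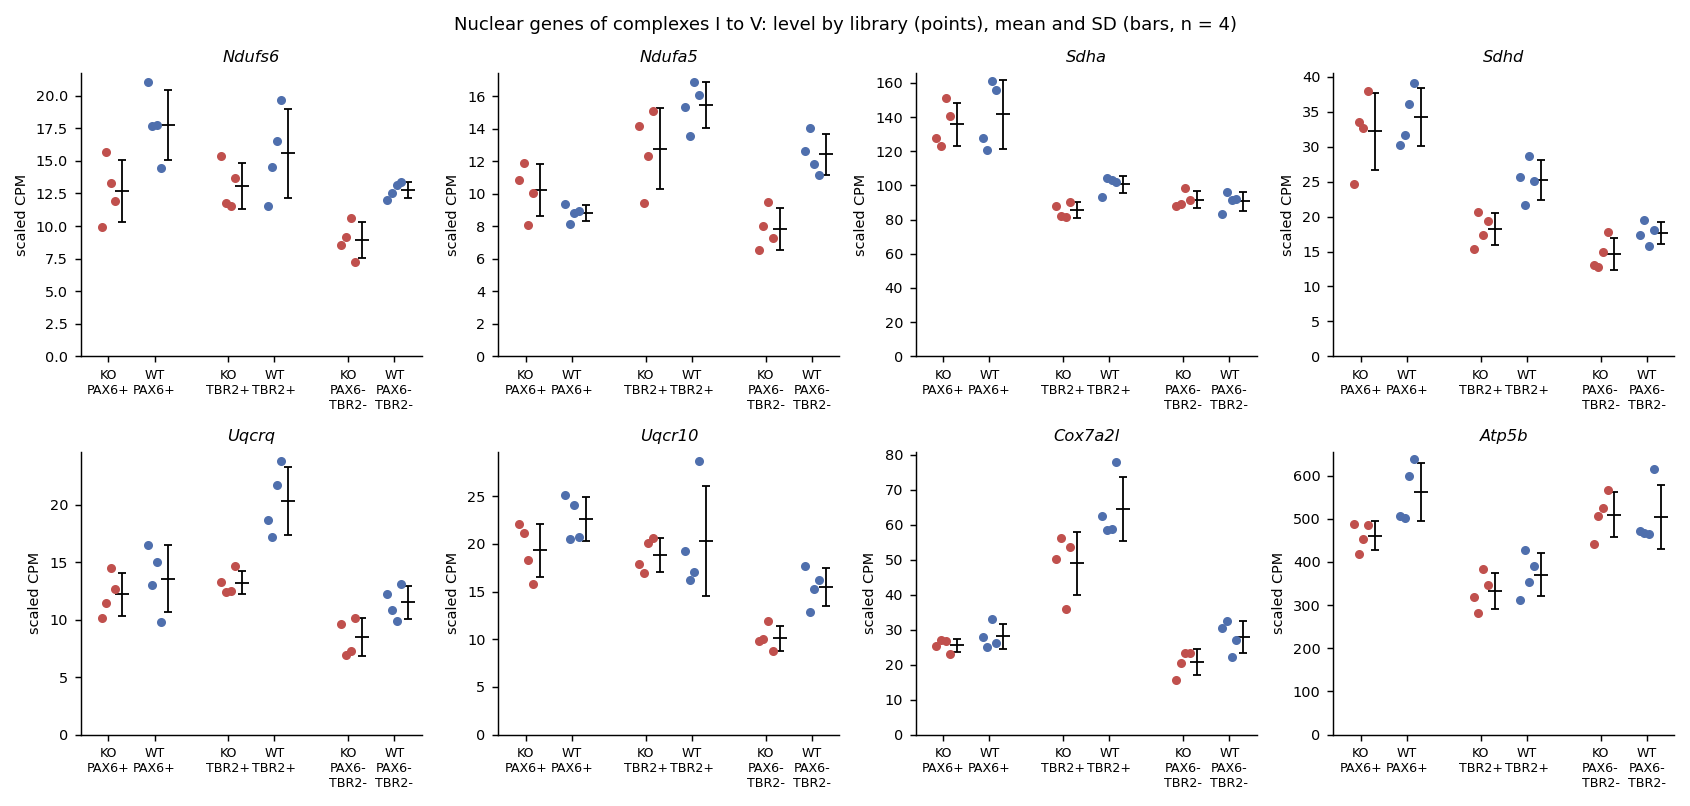
Levels (CPM on scaled library sizes) of 8 nuclear genes of complexes I to V by library (points), with group mean and SD (bars, n = 4), KO in red and WT in blue. Uqcrq in TBR2+ and Uqcr10, Ndufa5 and Ndufs6 in PAX6-TBR2- cells show KO libraries below WT libraries, Sdhd and Sdha are highest in PAX6+ cells, and Cox7a2l is highest in TBR2+ cells.

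None of the mitochondrial genes passed the test between KO and WT cells, and their order differed from that of the nuclear genes. In PAX6+ cells 6 of 7 lay below 0 (median -0.11), in TBR2+ cells all 8 lay above 0 (median 0.23), and in PAX6-TBR2- cells 5 of 8 lay above 0 (median 0.07). These genes come from 2 shared transcripts and are not replicates, so their signs are not independent. None had a p under 0.05 before adjustment in PAX6+ and PAX6-TBR2- cells, and 2 did in TBR2+ cells. Leaving out libraries in turn moved the median between -0.29 and 0.06 in PAX6+ cells, between 0.11 and 0.30 in TBR2+ cells and between -0.19 and 0.14 in PAX6-TBR2- cells, so its sign was held in TBR2+ cells alone. mt-Nd2, a membrane subunit of complex I, had 1285, 1876, 1577 and 1303 CPM in KO TBR2+ libraries, against 1330, 765, 1342 and 1198 CPM in WT TBR2+ libraries. WT replicate 2 was low, WT replicates 1 and 3 lay within the KO range and WT replicate 4 just below it, and the log2 fold change was 0.38 (SE 0.17, adjusted p = 0.367, edgeR). In WT TBR2+ replicate 2 the mitochondrial mRNA genes together took 1.05% of counts, against 1.36 to 1.43% in the other WT TBR2+ libraries. mt-Nd1 had 2335, 2798, 2846 and 2525 CPM in KO TBR2+ libraries, against 2359, 1464, 2293 and 2204 CPM in WT TBR2+ libraries (log2 fold change 0.33, SE 0.14, adjusted p = 0.33, edgeR). mt-Co1, the catalytic subunit of complex IV, had 1356, 4037, 2235 and 3278 CPM in KO PAX6+ libraries, against 3543, 3350, 2732 and 2985 CPM in WT PAX6+ libraries. KO replicate 1 was the lowest and KO replicate 2 the highest of the 8, so the spread within KO exceeded the difference between the groups (log2 fold change -0.20, SE 0.23). The rRNA genes mt-Rnr1 and mt-Rnr2 had a median log2 fold change of 0.01, 0.34 and -0.11 in PAX6+, TBR2+ and PAX6-TBR2- cells, and neither passed.

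**Figure D4:**
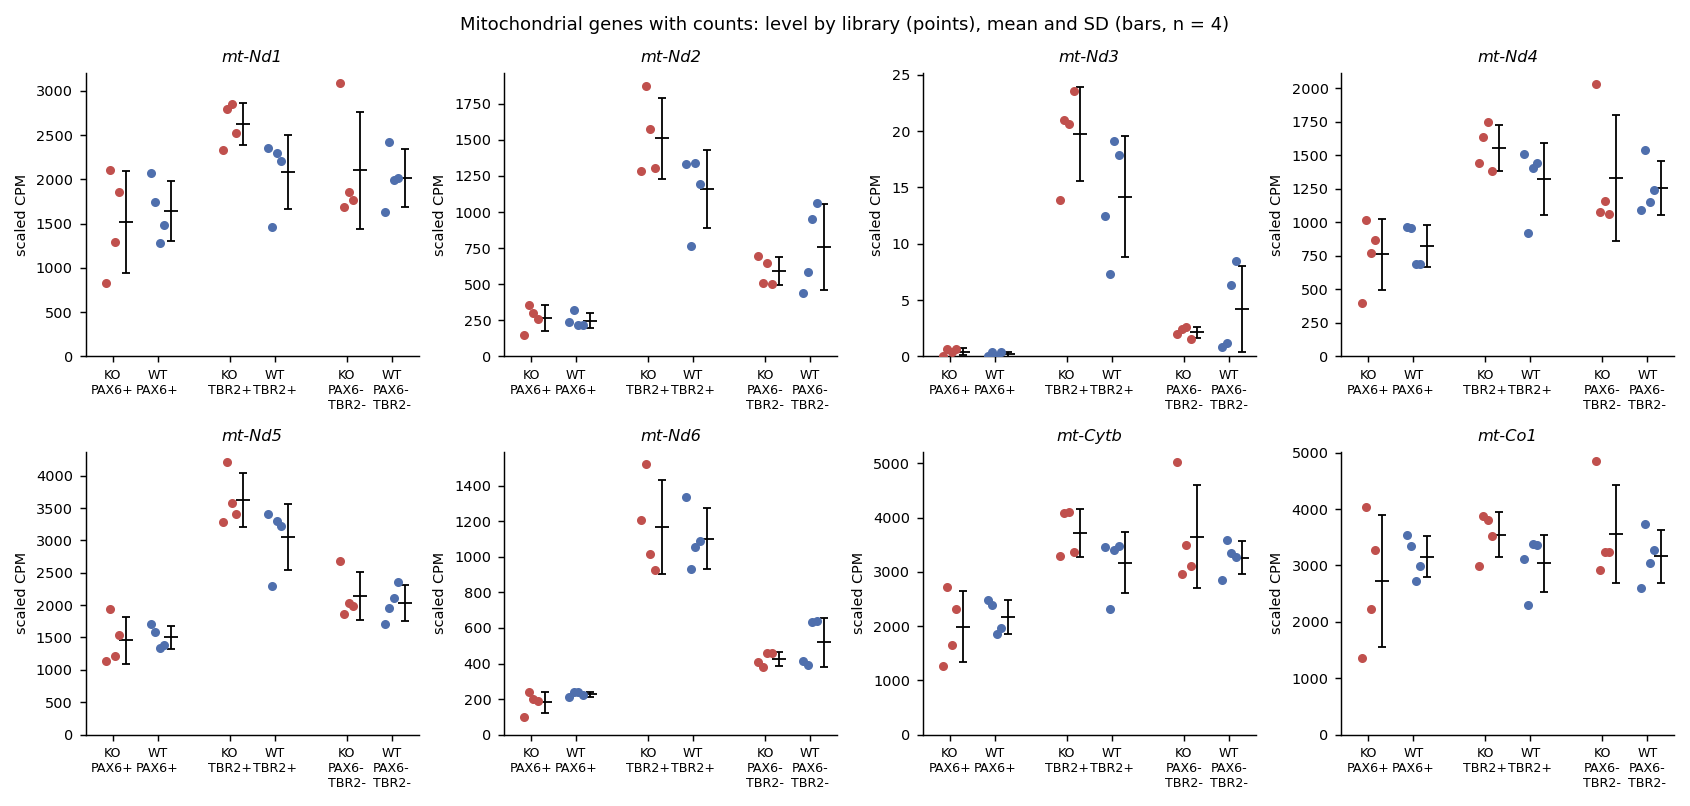
Levels (CPM on scaled library sizes) of the 8 mitochondrial mRNA genes with counts, by library (points), with group mean and SD (bars, n = 4), KO in red and WT in blue. mt-Nd2, mt-Nd3, mt-Nd5 and mt-Nd6 are highest in TBR2+ cells, mt-Co1 differs little between populations, and KO and WT libraries overlap for each gene and population.

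Between WT populations, the nuclear members called lower were fewer than among all genes in TBR2+ against PAX6+ cells, and the members called higher were fewer in both comparisons of PAX6-TBR2- cells. In WT TBR2+ against WT PAX6+ cells, 23 of 77 members (29.9%) were higher, near the 28.9% of all 15091 genes, and 6 (7.79%) were lower, against 30.5% of all genes. The median log2 fold change was 0.15 against -0.03 over all genes, and it was 0.09 without WT TBR2+ replicate 4, 0.25 with the length and GC correction and 0.09 in KO libraries. In WT PAX6-TBR2- against WT PAX6+ cells, 5 were higher (32.5% of all genes) and 18 lower (34% of all genes), with a median of -0.19. In WT PAX6-TBR2- against WT TBR2+ cells, 1 was higher (23.7% of all genes) and 31 lower (22.8% of all genes), with a median of -0.35. These comparisons share their WT groups. In the same order of comparisons, cytosolic ribosomal genes had medians of 0.14, -0.46 and -0.53. Of the 90 tested, 28, 6 and 5 were higher and 17, 49 and 52 lower. Mitochondrial ribosomal proteins had medians of -0.11, -0.34 and -0.22. Whether a shift common to these groups of genes carried the nuclear members was not tested. In KO TBR2+ against KO PAX6+ cells 14 members (18.2%) were higher and 8 (10.4%) lower, against 29.2% and 29.6% of all genes. In KO PAX6-TBR2- against KO PAX6+ cells 3 were higher and 35 lower, against 32% and 33.8% of all genes. In KO PAX6-TBR2- against KO TBR2+ cells 1 was higher and 41 were lower, against 22.3% and 22.4% of all genes. The mean level was highest in WT TBR2+ cells for 48 of the 77 members (62.3%, against 26.1% of all genes), in WT PAX6+ cells for 23 (29.9%, against 40.5%) and in WT PAX6-TBR2- cells for 6 (7.79%, against 33.4%). Both higher in TBR2+ than in PAX6+ and lower in PAX6-TBR2- than in TBR2+ cells were called 15 members (19.5%), against 8.88% of all genes.

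Cox7a2l showed the largest rise among called nuclear members in WT TBR2+ against WT PAX6+ cells. It had 62.4, 58.7, 58.9 and 77.9 CPM in WT TBR2+ libraries, against 28, 25.1, 33.1 and 26.3 CPM in WT PAX6+ libraries, a log2 fold change of 1.20 (SE 0.15, adjusted p = 5.76e-08, edgeR). In WT PAX6-TBR2- cells it had 30.5, 32.5, 22.1 and 26.9 CPM, a log2 fold change against WT TBR2+ of -1.21 (adjusted p = 1.29e-07, edgeR). Both other populations lay wholly below TBR2+ cells. The KO libraries kept this order, with 49 ± 9.09 CPM in TBR2+, 25.5 ± 1.85 CPM in PAX6+ and 20.7 ± 3.63 CPM in PAX6-TBR2- cells. Members of complex I rose as well in WT TBR2+ against WT PAX6+ cells: Ndufs5 by a log2 fold change of 1.10, Ndufc1 by 0.83, Ndufa5 by 0.81 and Ndufb3 by 0.81. In the KO libraries Ndufa5 and Ndufs5 did not pass this contrast. Complex I had 12 of 36 members higher and none lower, complex III 4 of 8 and none, and complex IV 4 of 12 and none, beside 28.9% of all genes higher and 30.5% lower. In KO TBR2+ against KO PAX6+ cells complex I had 7 higher and 2 lower, complex III 2 higher and none lower, and complex IV 3 higher and none lower.

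Complexes II and V held the members that fell in WT TBR2+ against WT PAX6+ cells. Sdha had 93.4, 105, 103 and 102 CPM in WT TBR2+ libraries, against 128, 121, 161 and 156 CPM in WT PAX6+ libraries. All TBR2+ libraries lay below all PAX6+ libraries, with a log2 fold change of -0.49 (SE 0.10, adjusted p = 8.09e-05, edgeR). Sdhd averaged 25.3 ± 2.83 CPM in WT TBR2+ and 34.3 ± 4.12 CPM in WT PAX6+ cells (log2 fold change -0.44, adjusted p = 0.0077, edgeR), and 17.7 ± 1.54 CPM in WT PAX6-TBR2- cells (log2 fold change against WT PAX6+ of -0.95, SE 0.14, adjusted p = 9.08e-07, edgeR). The subunits of complex II did not move together, since Sdhc rose in WT TBR2+ against WT PAX6+ cells (log2 fold change 0.33, adjusted p = 0.0154, edgeR) and Sdhb differed by -0.01 (adjusted p = 0.948, edgeR). In complex V, Atp5b had 313, 427, 352 and 390 CPM in WT TBR2+ libraries, against 507, 502, 599 and 638 CPM in WT PAX6+ libraries (log2 fold change -0.60, SE 0.12, adjusted p = 7.64e-05, edgeR). WT PAX6-TBR2- libraries had 471, 467, 464 and 616 CPM, above all WT TBR2+ libraries. Atp5b was the member called higher in WT PAX6-TBR2- than in WT TBR2+ cells (log2 fold change 0.45, adjusted p = 0.00254, edgeR). Atp5s, Atp5g1 and Atp5j also fell in WT TBR2+ against WT PAX6+ cells, by log2 fold changes of -0.79, -0.76 and -0.73. The calls of Atp5s and Atp5g1 were lost with the length and GC correction and without WT TBR2+ replicate 1, and that of Atp5s also without WT TBR2+ replicate 3. The Atp5j transcript shares 124 bases with Gabpa, so reads there may belong to either gene.

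**Figure D5:**
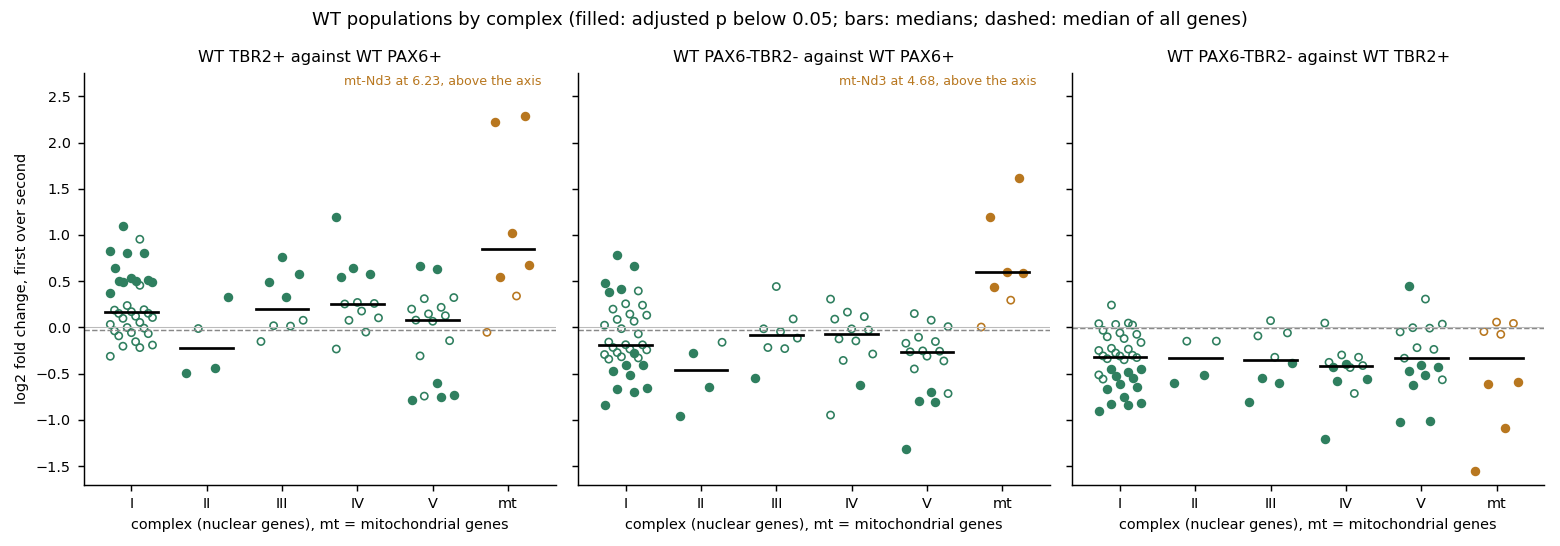
Log2 fold changes between WT populations of the tested members, first named population over second, by complex for nuclear genes and in the last column for mitochondrial genes. Filled points passed an adjusted p of 0.05, bars are medians and the dashed line is the median of all genes. mt-Nd3, at 6.23 and 4.68, lies above the axis of the first and second panels. Filled points lie mostly above 0 in the first panel and below 0 in the third.

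Among called members, the largest falls in WT PAX6-TBR2- against WT PAX6+ cells were those of Atp5g2 (log2 fold change -1.31, 0.739 CPM against 2.09 CPM), Sdhd, Ndufa12 (-0.84), Atp5e (-0.81) and Atp5s (-0.80). The members that rose were Ndufs5 (0.79), Ndufa8 (0.67), Ndufa5 (0.48), Ndufb10 (0.42) and Ndufc1 (0.38), all of complex I. In the KO libraries Ndufs5 and Ndufa5 had estimates of the opposite sign, -0.27 and -0.39. Among called members, the largest falls in WT PAX6-TBR2- against WT TBR2+ cells were those of Cox7a2l, Atp5l (-1.03), Atp5e (-1.01), Ndufs7 (-0.91) and Ndufa2 (-0.83). Ndufs7 carries an iron-sulfur cluster of complex I, and Atp5e is the epsilon subunit of complex V. Atp5l, at 1.04 CPM on average, lost its call in 7 of 17 alternatives, among them leaving out WT TBR2+ replicate 3 or 4 or WT PAX6-TBR2- replicate 1 or 2. Against PAX6+, Ndufc1 lost its call in 9 of 17 alternatives and Ndufs5 in 6 of 17, both of them without WT PAX6+ replicate 2 or 4 or WT PAX6-TBR2- replicate 1 or 4. There Ndufb10 lost its call without WT PAX6+ replicate 2 or WT PAX6-TBR2- replicate 1, and Atp5s without WT PAX6-TBR2- replicate 3 or 4.

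The mitochondrial genes rose in both WT TBR2+ and WT PAX6-TBR2- cells relative to WT PAX6+ cells, 6 of 8 in each comparison, against 28.9% and 32.5% of all genes, and by unequal amounts. mt-Nd6, encoded on the light strand, had 1338, 932, 1056 and 1088 CPM in WT TBR2+ libraries, against 209, 239, 237 and 222 CPM in WT PAX6+ libraries. Its counts can include reads of the complementary strand. mt-Nd2 had 1330, 765, 1342 and 1198 CPM in WT TBR2+ libraries, against 240, 322, 214 and 214 CPM in WT PAX6+ libraries. Every TBR2+ library exceeded every PAX6+ library for both genes, with log2 fold changes of 2.28 (SE 0.20, adjusted p = 1.01e-10) for mt-Nd6 and 2.23 (SE 0.25, adjusted p = 1.27e-08) for mt-Nd2 by edgeR. mt-Nd5 rose by a log2 fold change of 1.02, mt-Nd4 by 0.68 and mt-Cytb by 0.55, whereas mt-Co1 (-0.05, adjusted p = 0.841) and mt-Nd1 (0.34, adjusted p = 0.18) did not pass. mt-Nd1 was called with the length and GC correction and in KO TBR2+ against KO PAX6+ cells, where 7 of 8 mitochondrial genes were higher. The composition of the mitochondrial mRNA counts moved with this. mt-Co1 made up 20.4 ± 1.02% of them in WT TBR2+ cells against 32.3 ± 0.899% in WT PAX6+ cells, and mt-Nd6 made up 7.47 ± 0.954% against 2.36 ± 0.41%. In KO cells the same shares were 20 ± 1.13% in TBR2+ against 29.9 ± 2.99% in PAX6+ for mt-Co1 and 6.57 ± 1.21% against 2.08 ± 0.36% for mt-Nd6. mt-Nd3 averaged 14.2 ± 5.39 CPM in WT TBR2+ and 0.187 ± 0.218 CPM in WT PAX6+ cells, where 2 of the 4 libraries held no count, so its fitted log2 fold change of 6.23 depends on the prior count.

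The mitochondrial rRNA genes moved in the same direction. mt-Rnr2 took 19.7 ± 2.39% of all counts in WT TBR2+ against 10.6 ± 1.5% in WT PAX6+ cells, and both rRNA genes passed, with a median log2 fold change of 1.36. For each mitochondrial mRNA count there were 22.2 ± 0.998 rRNA counts in WT TBR2+, 18.8 ± 2.09 in WT PAX6-TBR2- and 13.1 ± 0.968 in WT PAX6+ cells, and in KO cells 23.4 ± 3.38, 16.9 ± 2.79 and 15.2 ± 5.06. The part of rRNA content or of the library set in the differences between populations was not tested. In WT PAX6-TBR2- against WT TBR2+ cells, mt-Nd6 (-1.09), mt-Nd5 (-0.59), mt-Nd3 (-1.55) and mt-Nd2 (-0.61) fell, while mt-Cytb, mt-Co1, mt-Nd1 and mt-Nd4 lay between -0.07 and 0.06. The call for mt-Nd2 was lost on leaving out WT TBR2+ replicate 1, 3 or 4 or WT PAX6-TBR2- replicate 1 or 2. In WT PAX6-TBR2- against WT PAX6+ cells, mt-Nd5 was not called without WT PAX6-TBR2- replicate 4, and mt-Nd4 without WT PAX6+ replicate 3 or 4 or WT PAX6-TBR2- replicate 2.

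Subunits that exist as tissue isoforms were represented by the form that is common in most tissues. Cox4i1 averaged 60.1 ± 6.99 CPM in KO TBR2+ and 69.2 ± 10.4 CPM in WT TBR2+ cells, and 40.6 ± 3.55 CPM in KO and 52.7 ± 7.46 CPM in WT PAX6-TBR2- cells, while Cox4i2, known from lung, averaged 0.136 to 0.607 CPM over the 6 groups. Cox6a1 averaged 42.6 to 75.7 CPM over the groups, and its heart and muscle form Cox6a2 held 3 counts in all. Cox6b1 averaged 17.1 to 25.9 CPM and Cox6b2, known from testis, 0.373 to 2.03 CPM. Cox7a2 averaged 18.6 to 26.5 CPM, and the muscle form Cox7a1 held 119 counts over all libraries. Cox8a averaged 16.1 to 25.3 CPM, with 24 counts of Cox8b and 1 of Cox8c. Cox7b averaged 16.9 to 27.2 CPM, with 6 counts of Cox7b2, and Ndufa4 averaged 22.2 to 34.3 CPM, with 55 of Ndufa4l2. Of the genes that encode the same mature ring subunit of complex V, Atp5g3 averaged 30.9 CPM per kb over all libraries, Atp5g1 1.24 and Atp5g2 0.735.

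Other gene lists of mitochondria and energy metabolism were compared between KO and WT cells in the same fits. Among assembly factors of the complexes, 30 of 45, 31 of 44 and 28 of 45 lay below 0 in PAX6+, TBR2+ and PAX6-TBR2- cells, with medians of -0.07, -0.10 and -0.06 and none called. Mitochondrial ribosomal proteins had medians of -0.06, -0.07 and -0.13 and none called. Import genes had medians of -0.13, -0.08 and -0.06 and genes of the citric acid cycle -0.09, -0.05 and -0.04, with none called. Among genes of mitochondrial transcription and maintenance, Tfb1m, which encodes an rRNA methyltransferase, rose in KO against WT TBR2+ cells (log2 fold change 0.81, SE 0.17, adjusted p = 0.0254, edgeR), 1 of 25 tested there against 1.1% of all genes called higher, and none was called elsewhere. Of 11 regulators tested in each population, 1 was called lower in KO PAX6+ cells, Ppargc1a, against 1.19% of all genes, and none was called elsewhere. It averaged 33.2 ± 4.16 CPM in KO and 46.1 ± 4.55 CPM in WT PAX6+ cells, without overlap (log2 fold change -0.47, SE 0.12, adjusted p = 0.0409, edgeR). In TBR2+ cells it averaged 5.85 ± 2.65 CPM in KO and 5.7 ± 1.6 CPM in WT, and in PAX6-TBR2- cells 13.4 ± 1.63 CPM in KO and 12.3 ± 1.00 CPM in WT, so its level was highest in PAX6+ cells of either genotype. The KO effect on Ppargc1a did not pass edgeR's test of a difference from PAX6+ cells, either in TBR2+ (adjusted p = 0.772) or in PAX6-TBR2- cells (adjusted p = 0.576). Nrf1, Gabpa, Yy1 and Esrra, whose products can bind the promoter letters above, did not pass between KO and WT cells in any population. In PAX6+ cells Nrf1 averaged 89.4 ± 7.86 CPM in KO and 92.8 ± 5.94 CPM in WT, and Gabpa 142 ± 30 CPM in KO and 137 ± 14.1 CPM in WT. In WT TBR2+ against WT PAX6+ cells, Nrf1 (log2 fold change -0.61) and Gabpa (-0.77) were called lower by edgeR. There Esrra was called higher (2.07, from 1.59 CPM in WT PAX6+ cells) and Yy1 (0.10) was not called. Genes of glycolysis had medians of -0.29, -0.06 and -0.19 in PAX6+, TBR2+ and PAX6-TBR2- cells, with 15 of 19, 10 of 18 and 15 of 18 below 0. Among them 3 of 19 were lower in KO PAX6+ cells, Aldoa, Ldha and Tpi1 (log2 fold changes -0.51, -0.50 and -0.49), against 1.19% of all genes called lower. In TBR2+ cells 1 of 18 was lower, Ldhb (-0.46), against 0.662% of all genes.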

How the data were processed

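Sorted-cell RNA was extracted with a RecoverAll kit and amplified by the Ovation RNA-seq V2 system, per the labels' protocols. No molecular identifiers were used, and the p-values and spreads therefore include amplification. FastQC, cutadapt, STAR, featureCounts, DESeq2 and build mm10 are named, without versions, in the submitters' processing notes. Neither the strand setting nor the annotation release is stated there. The authors deposited raw counts by Ensembl identifier, and the 2 lanes of a library were summed. They also deposited normalized signal values, which have the form of counts divided by a size factor. Within a tolerance of 0.000001, 100% of those values were whole reads, which served as an alternative count table. In PAX6+ its library totals equalled those of the raw counts, but elsewhere most were larger. Its TBR2+ columns held 9493300 to 12080308 reads, against 6402081 to 8215667 raw counts per library. Its largest PAX6-TBR2- column held 60078232 reads, against 30027954 raw counts in the largest library. A WT PAX6-TBR2- column of 8637003 reads equalled a raw total. The cause of the difference was not tested. Outside PAX6+ the columns of the alternative table were matched to a group and not to a replicate.

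Genes were named with GENCODE M21 (GRCm38), which matched 37693 of 39017 identifiers. Members and lists were chosen with earlier results of these data known. KO and WT were compared within a population, and populations and interactions over all 24 libraries, by the two-sided quasi-likelihood F test of edgeR 4.0.16 under R 4.3.3, after filterByExpr and TMM scaling, with Benjamini-Hochberg adjustment over all tested genes and a threshold of 0.05. SE is the size of the log2 fold change divided by the square root of F. The fit was tested on simulated data. Alternatives used DESeq2 1.42.0 and limma 3.58.1 (voom), other scalings, no filter, the recovered reads, a length and GC trend, a replicate block and leaving out each library. Copies were found with blastn 2.17.0 among annotated transcripts. Same-numbered KO and WT libraries correlated in their deviations from group means at 0.154 to 0.326 in PAX6+, where every pair passed 0.1. The range was 0.0402 to 0.314 for TBR2+ pairs and 0.0621 to 0.26 for PAX6-TBR2- pairs, so not every pair passed there. Named genes were the mitochondrial members, the 5 called nuclear members of largest change in each direction and comparison, the 5 of smallest p where fewer than 3 were called, the isoform genes, the Sdh genes, and up to 3 called genes of each other list. Ndufb2, Cox7c and the other genes named outside this rule were chosen after their values were seen.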

Additional observations from a re-analysis of the deposited data

Results flagged for a closer look

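Among 126 sets of 4 libraries examined for a library far from the other 3, 8 had one, where chance alone flags about 1 in 20. WT TBR2+ held a high library for Cox6a1 (replicate 4, 92.9 CPM) and a low library for mt-Cytb (replicate 2, 2324 CPM). KO PAX6-TBR2- replicate 1 was high for mt-Nd1 (3086 CPM) and for mt-Co1 (4846 CPM). In WT PAX6-TBR2- cells, the nuclear share was low in replicate 3 (0.196%), Atp5b was high in replicate 4 (616 CPM), and Atp5g1 was low in replicate 1 (3.73 CPM). WT PAX6+ replicate 1 was high for Atp5g2 (2.54 CPM). By edgeR's test, no member's KO effect passed for a difference between populations.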

How the results depend on the processing

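Medians of the nuclear members stayed below 0 in each KO against WT comparison under every alternative run. Their calls were few and moved: in TBR2+ cells 1 was called in the reported fit, 2 with DESeq2's Wald test or no filter, 0 with limma-voom, the length and GC correction or the recovered reads, and 0 to 2 on leaving out libraries. With the replicate number as a block, 1 was called in PAX6+ (Atp5b), 3 in TBR2+ (Uqcrq, Atp5g3 and Cox7a2l) and 1 in PAX6-TBR2- cells (Cox6a1), while all genes called numbered 1045, 720 and 153, against 517, 223 and 1 without it. Without a filter, 1 mitochondrial gene, mt-Nd2, was called in TBR2+ cells, and the mitochondrial median in PAX6-TBR2- cells was -0.30. The length and GC correction moved the nuclear median in PAX6-TBR2- cells to -0.17. For WT PAX6-TBR2- against WT PAX6+ it gave a nuclear median of -0.079 and a mitochondrial median of 0.91, and the KO libraries gave 38 nuclear calls and medians of -0.31 and 0.84, with Ndufa5 at -0.39 and Ndufs5 at -0.27. The mitochondrial median of TBR2+ against PAX6+ was 1.17 in KO libraries. Nuclear calls of WT PAX6-TBR2- against WT TBR2+ ranged from 21 to 33 on leaving out libraries, 21 without WT TBR2+ replicate 4. DESeq2's Wald test called 1 nuclear member, Ndufa5, for a KO effect differing between PAX6-TBR2- and PAX6+ cells, and leaving out libraries gave 0 to 1, the call being Ndufa5 without KO PAX6+ replicate 3. As shares of non-mitochondrial counts, the nuclear set took 0.371, 0.299 and 0.261% in KO and 0.415, 0.347 and 0.295% in WT PAX6+, TBR2+ and PAX6-TBR2- cells. The mitochondrial set took 1.34, 2.21 and 1.69% in KO and 1.49, 1.89 and 1.60% in WT PAX6+, TBR2+ and PAX6-TBR2- cells. The cause of these moves was not tested. Genes of the other lists were tested in the reported fits only. Low counts limit mt-Nd3, Atp5l and Atp5g2.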
